A study of Schizosaccharomyces pombe with 26 samples.

Results

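The 6 genes described here stand at the end of glucose fermentation and at the entry of malate into it in the fission yeast *Schizosaccharomyces pombe*. *pdc101*, *pdc102* and *pdc201* encode pyruvate decarboxylases, *adh1* encodes alcohol dehydrogenase, *mae1* encodes the permease that takes up malate, and *mae2* encodes malic enzyme, which turns malate into pyruvate. They were chosen by name, with earlier results of these data known. A spotted feature was taken where its label was a gene's symbol or its systematic identifier (SPAC1F8.07c for *pdc101*, SPAC186.09 for *pdc102* and SPAC3G9.11c for *pdc201*). Every gene had 1 intergenic (IGR) feature and 1 open reading frame (ORF) feature, so that 12 of 9848 features, or 24 of 19722 spots, are described. IGR features are named for single genes, and the files state neither which bases it holds nor on which side of the gene it lies.

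The study measured where the Mediator subunit Med15 is bound and how histone H3 is distributed, by chromatin immunoprecipitation (ChIP) of fragments of about 600 to 1500 bp read on spotted 2-colour arrays. Med15 was precipitated through a myc tag from the Med15-myc strain, in 3 samples on IGR arrays and in 3 on ORF arrays, each hybridised beside input DNA of its own preparation. Histone H3 was precipitated from wildtype (711) in 2 samples, from a strain lacking Med15 (Δmed15) in 2 samples and from a strain lacking Hrp1 (Δhrp1) in 3 samples of each array type. Cells of all strains came from mid-log cultures in YES, a rich medium with 30 g/l glucose, and the labels name no other treatment. No untagged strain was analysed here, so the Med15-myc ratios have no background measured in cells without the tag, and the wildtype H3 samples have no input channel here.

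On glucose, fission yeast sends most pyruvate to ethanol: pyruvate decarboxylase releases carbon dioxide and leaves acetaldehyde, and alcohol dehydrogenase reduces acetaldehyde to ethanol, which returns the NAD+ that glycolysis consumes. Malate taken up by Mae1 is decarboxylated by Mae2 and joins the same pyruvate pool. Mediator is the large complex that passes signals from transcription factors to RNA polymerase II, and Med15 belongs to its tail, the part that activators contact in *Saccharomyces cerevisiae*. Hrp1 belongs to the CHD1 family of ATPases that move nucleosomes, and ChIP of histone H3 follows how much nucleosomal DNA a region yields.

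In the RefSeq annotation of assembly ASM294v3, *pdc101* lies at I:101715-103597 on the minus strand, with 2 coding exons. *pdc102* lies at I:5552811-5554529 and *pdc201* at I:3159811-3162245, both on the plus strand. *adh1* lies at III:1591292-1592889 on the plus strand. *mae2* lies at III:275261-277262 on the minus strand. *mae1* lies at I:4912249-4914182 on the plus strand, and its annotated end overlaps that of *npc2*. Which build the arrays were designed on was not found in the labels or headers, so these coordinates describe the genes and not the spots. The space upstream of *pdc101* is only 343 bases and is shared with the divergent gene SPAC1F8.08, whereas the gaps upstream of *mae1*, *mae2*, *pdc201*, *adh1* and *pdc102* measure 1373, 1643, 2478, 2642 and 2798 bases.

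The 250 bases that precede the annotated transcript start are printed for *pdc101*, *mae2* and *adh1*, whose IGR features were called for Med15-myc after background correction or loess, though none of them was with the signal as scanned. They are given 5′ to 3′ on the strand of the gene, from RefSeq (ASM294v3), at I:103598-103847 for *pdc101*, III:277263-277512 for *mae2* and III:1591042-1591291 for *adh1*. Capitals mark TATAAA or TATATA.
pdc101: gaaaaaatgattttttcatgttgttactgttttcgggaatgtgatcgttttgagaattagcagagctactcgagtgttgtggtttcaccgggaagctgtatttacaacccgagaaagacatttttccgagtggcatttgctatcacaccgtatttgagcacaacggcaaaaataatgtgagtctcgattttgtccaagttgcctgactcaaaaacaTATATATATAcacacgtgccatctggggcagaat
mae2: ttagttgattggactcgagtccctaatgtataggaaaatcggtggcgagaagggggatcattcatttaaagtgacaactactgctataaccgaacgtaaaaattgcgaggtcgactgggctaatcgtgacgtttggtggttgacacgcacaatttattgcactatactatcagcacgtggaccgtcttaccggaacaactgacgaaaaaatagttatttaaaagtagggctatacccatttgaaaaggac
adh1: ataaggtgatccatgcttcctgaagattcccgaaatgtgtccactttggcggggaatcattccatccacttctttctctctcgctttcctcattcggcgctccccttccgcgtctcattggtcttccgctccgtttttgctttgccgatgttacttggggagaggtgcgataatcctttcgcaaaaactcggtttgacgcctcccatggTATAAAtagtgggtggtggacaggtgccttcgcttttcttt

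TATAAA and TATATA, 2 spellings of the TATA box that sits near the start of many yeast genes, were searched on both strands. In *pdc101* overlapping matches to TATATA, which reads the same on both strands, ran from 34 to 25 bases before the start. *adh1* held TATAAA at 41 to 36 bases before the start. Neither string was found in the windows of *mae2* or *mae1*. Of 4512 promoter windows of the same length, 44.6% held TATAAA, 26.6% held TATATA and 56.6% held either. TGACGT, a string of the kind bound by CREB and ATF factors, occurred in *mae2* at 124 to 119 bases before the start and in 5.36% of all windows. CCAAT was found on the opposite strand of *adh1*, *mae1* and *mae2* and in 35.2% of all windows. These matches describe letters and are no evidence of binding. *pdc102* has no annotated transcript start and no window.

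Before the results, the state of the arrays bears on them. The log2 ratios of Med15-myc ChIP over input, as scanned, ran against each other over all IGR features: Spearman's rho was −0.19 between replicates 1 and 2, 0.30 between 1 and 3 and −0.39 between 2 and 3. Replicate 2 had its ChIP DNA in Cy5 and replicates 1 and 3 in Cy3. After normexp background correction the same coefficients were 0.34, 0.34 and 0.13. From 4.6% to 47.1% of the IGR features of a Med15-myc array were below 1.5 times their background in at least 1 channel. The deleted genes were low in their own strains: on ORF arrays the centred log2 H3 signal of *hrp1* was −5.23, −5.99 and −4.53 in Δhrp1 against 1.49 and 1.41 in wildtype, and that of *med15* was −4.75 and −4.02 in Δmed15 against −1.78 and −1.44. The duplicate spots of the 6 genes differed by a median of 0.21 (IGR) and 0.16 (ORF) in log2 Med15-myc ratio, with a highest difference of 2.08 for *pdc102* IGR in replicate 2.

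Med15-myc over input had its highest means, among the 6 genes, at the IGR features of *mae2* (2.02 on the log2 scale) and *pdc101* (1.97), where all 3 samples were above the array median. The 2 genes lie on different chromosomes. *adh1* was as high in 1 sample and not in the others, with the signal as scanned. *pdc102*, *pdc201* and *mae1* gave ratios that lay on both sides of the array median. With the signal taken as scanned, no gene passed the test.

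At *pdc101* IGR the log2 ratio of Med15-myc ChIP over input, with the median feature of each array set to 0, was 2.81, 1.78 and 1.34 in replicates 1 to 3. It lay above 99.9%, 85.5% and 96.4% of all IGR features of the array. The mean was 1.97 ± 0.51 (SE of the fit, n = 3), rank 29 of 4961. Every sample was above the median, but replicate 2 had a wide spread, with the 95th percentile of all its features at 3.43, above its value for *pdc101*. Without replicate 1, that is within the replicates whose scanner tables share a date (2 and 3), the mean was 1.56 ± 1.12 for *pdc101* and 1.66 ± 1.12 for *mae2*.

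*pdc102* IGR, named for another predicted pyruvate decarboxylase, gave 0.27, 3.14 and −0.76, with a mean of 0.89 ± 0.86. A single sample, replicate 2, carried that mean, and its duplicate spots were those that differed by 2.08. In that sample the input signal of *pdc102* IGR was 415.5 scanner units, 0.11 times the array median, and its ChIP channel lay above 44.9% of features. *pdc201* IGR gave 0.08, −1.29 and 0.57, with a mean of −0.21 ± 0.55. All samples of *pdc101* lay above those of *pdc201*, while *pdc102* overlapped both, and the differences between the genes were not tested. Their coding sequences are 59.2% identical between *pdc101* and *pdc102* and 52.8% between *pdc101* and *pdc201*, with no shared run above 20 bases.

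*adh1* IGR, next to the gene for the last step of fermentation, gave 2.87, 0.68 and −3.32, with a mean of 0.08 ± 1.23. In replicate 3 its input signal of 4950 was 1.08 times the background of 4573.5, and its ChIP signal was only 108.75 scanner units, so that the ratio of this sample has an input at background. In replicate 1 the ChIP signal was 57985.5 over an input of 13568, the highest ratio of the 6 genes in that sample.

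*mae2* IGR gave 2.73, 1.96 and 1.35, above 99.8%, 87.0% and 96.7% of all features. The mean was 2.02 ± 0.49, rank 25 of 4961. *mae1* IGR gave −2.86, −0.50 and 1.27, with a mean of −0.70 ± 0.87. Replicate 1 of *mae1* read 165 over a background of 140 in the ChIP channel and 1953 over 1949 in the input channel, so that both channels were at background. The samples of the enzyme gene *mae2* lay above those of the uptake gene *mae1* without overlap, and the difference was not tested.

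**Figure D1:**
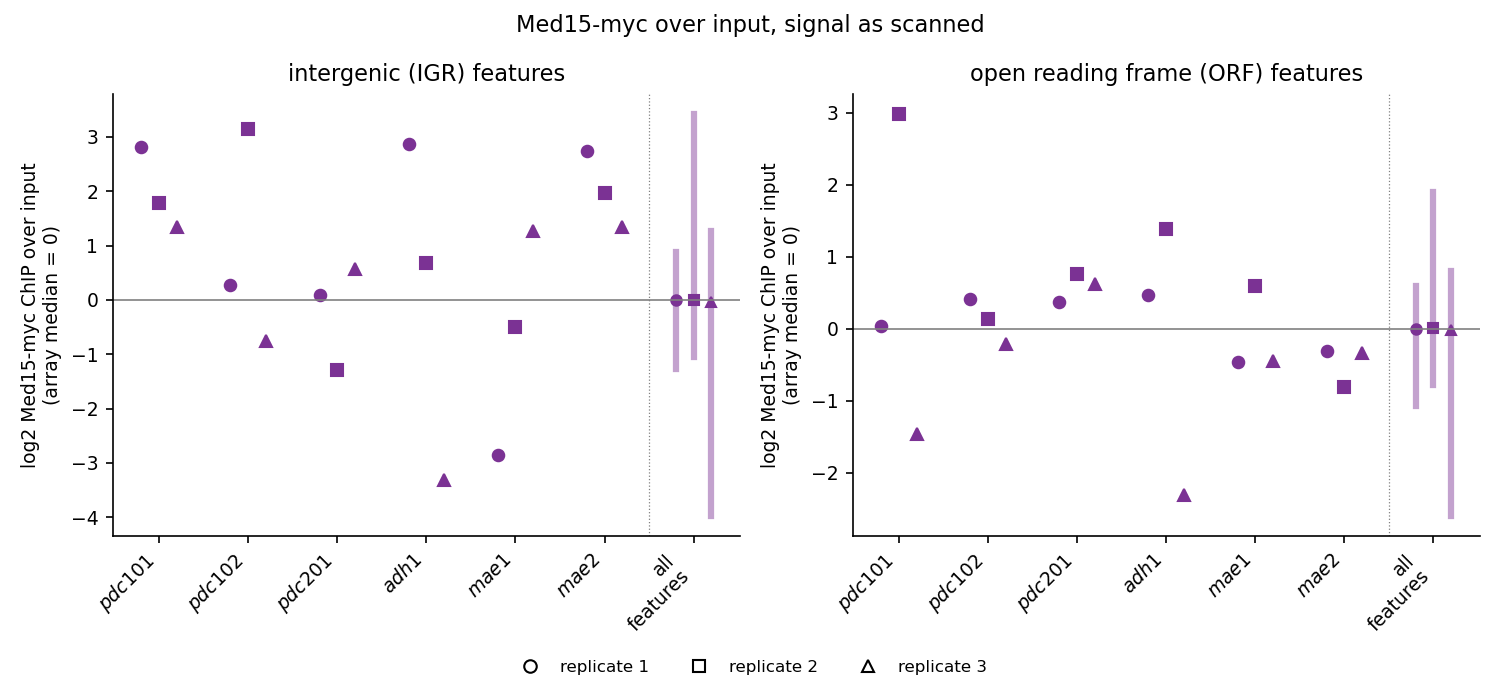
Log2 ratio of Med15-myc ChIP over input as scanned, with the array median at 0, for the IGR (left) and ORF (right) features of the 6 genes, 1 symbol per replicate; at the right of each panel the bars span the 5th to 95th percentile of all features of each replicate around its median. *pdc101* and *mae2* IGR lie above 1.3 in all 3 samples, while *adh1* IGR ranges from −3.32 to 2.87.

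In limma's test of the mean of the 3 ratios against 0, 0 of 6 IGR features passed an adjusted p (Benjamini-Hochberg over all IGR features) of 0.05, beside 0% of all 4961 features. The adjusted p was 0.9999 for each of the 6, and 35 features had an unadjusted p under 0.05, of which 30 were higher. The count changed with the handling of background. After normexp correction *mae2* reached 2.59 ± 0.36 (adjusted p = 4.44e-08, rank 7), *pdc101* 2.44 ± 0.36 (2.66e-07, rank 8) and *adh1* 1.74 ± 0.36 (0.00100, rank 26), so that 3 of 6 were called, beside 2.46% of all features called and 1.25% called higher. Because the genes were chosen with earlier results of these data known, these shares describe the set and do not test it. The samples behind these means were 2.86, 3.26 and 1.66 for *mae2*, 2.78, 2.91 and 1.64 for *pdc101* and 2.60, 2.27 and 0.35 for *adh1*. *mae2* and *pdc101* then lay above 98.97% or more of all features in each sample.

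After loess within each array the same 3 genes were called, at 1.73 for *mae2*, 1.68 for *pdc101* and 1.63 for *adh1*, beside 10.3% of all features called. The samples of *adh1* after loess were 2.23, 1.83 and 0.83. *pdc102* (0.31), *mae1* (0.28) and *pdc201* (−0.34) were not called. When dim features were left out, *mae2* and *pdc101* were called as scanned, beside 1.53% of the 2093 features that remained, and *adh1* and *mae1* dropped out. That filter used the same ChIP and input signals as the test, so these calls are no separate support. In replicate 2 the median ChIP signal was 7879.5 over a background of 4880.5, so features with high ChIP signal were the likelier to remain. *mae2* and *pdc101* were also called without any 1 of the 3 samples after normexp and after loess. *adh1* lost its call after normexp without replicate 1, with 1.31 and an adjusted p of 0.376, which is also its value within replicates 2 and 3, which share a date.

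The ChIP channel alone, without division by input, gave another set of calls. There *mae2* (2.65), *pdc101* (2.36) and *pdc201* (2.28) were called, beside 14.4% of 4881 features. At *pdc201* IGR the input signal was 3.26, 7.02 and 2.10 times the array median, whereas at *pdc101* IGR it was 1.34, 0.62 and 0.87 times and at *mae2* IGR 1.21, 0.75 and 1.14 times.

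**Figure D2:**
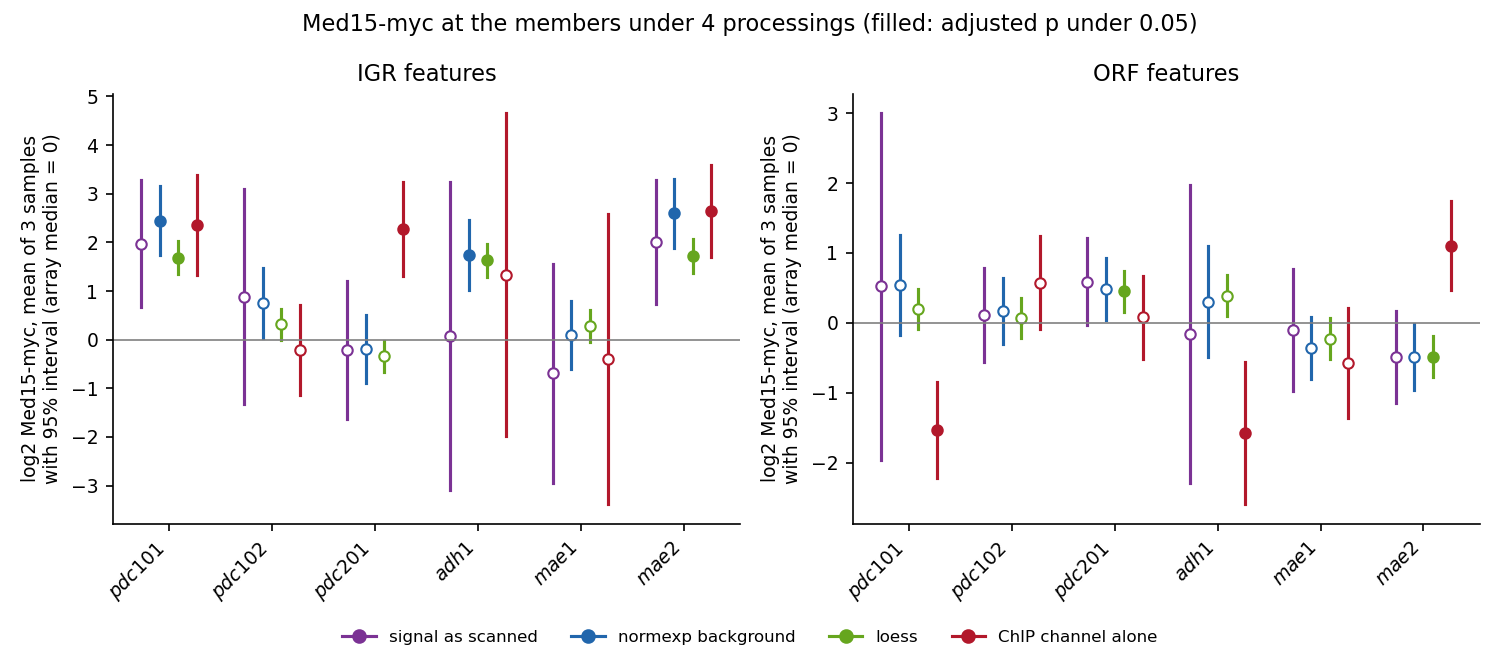
Mean log2 Med15-myc signal of 3 samples with its 95% interval for IGR (left) and ORF (right) features, for the ratio as scanned, after normexp, after loess and for the ChIP channel alone; filled points have an adjusted p under 0.05. *pdc101* and *mae2* IGR keep means between 1.68 and 2.65 under all 4, and no filled point is purple, the colour of the ratio as scanned.

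In the open reading frames the means of the 6 genes lay between −0.49 and 0.59. *pdc201* ORF gave 0.38, 0.77 and 0.62, with a mean of 0.59 ± 0.23. *pdc101* ORF gave 0.04, 2.99 and −1.46 (mean 0.52 ± 0.92), and its input in replicate 2 was 0.067 times the array median. *adh1* ORF gave 0.47, 1.38 and −2.32 (mean −0.15 ± 0.79). The enzyme gene *mae2* was below the median in its ORF in every sample, at −0.31, −0.82 and −0.34 (mean −0.49 ± 0.24), opposite to its IGR feature. *pdc102* and *mae1* ORF had means of 0.11 and −0.10. None of the 6 ORF features was called as scanned, beside 0% of 4887 features, of which 81 had an unadjusted p under 0.05. None was called after normexp, beside 0.45%. After loess *mae2* (−0.48, adjusted p = 0.0191) and *pdc201* (0.45, adjusted p = 0.0306) were called, beside 9.35% of all features, and neither call held without replicate 1, with adjusted p of 0.265 and 0.215. Without replicate 2 *pdc201* was lost (0.248), and without replicate 3 both were (0.172 for *mae2* and 0.0558 for *pdc201*) while *adh1* passed (0.65, adjusted p = 0.0103). With the ChIP channel alone *adh1* (−1.58) and *pdc101* (−1.53) were called lower and *mae2* (1.11) higher, beside 34.1% of 4791 features, so that *mae2* and *pdc101* changed sign against their ratios.

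The features named for the gene upstream of *pdc101* had high ratios too. The IGR feature of SPAC1F8.08, the divergent neighbour, gave 2.60, 1.02 and 1.62 as scanned (mean 1.75) and 1.97 after normexp (adjusted p = 5.11e-05). A separate feature labelled longIGRSPAC1F8.08 gave 2.13, 1.96 and 1.19 (mean 1.76) and 2.24 after normexp (adjusted p = 1.50e-06). The ORF of SPAC1F8.08 gave 2.04, 0.85 and 0.59 (mean 1.16), and that of *pfl8*, on the downstream side, gave 0.06, 1.15 and −1.22 (mean −0.0041). All 3 IGR features with these names were above the array median in every sample. With fragments of up to 1500 bp and 343 bases between the genes, the signal cannot be assigned to *pdc101* or to SPAC1F8.08.

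Around *mae2* and *adh1* the neighbouring IGR features were not high in all samples. *ent3*, downstream of *mae2*, gave −0.55, 4.18 and −2.82 (mean 0.27), and SPCC794.15, upstream, gave −0.53, −0.41 and −2.28 (mean −1.08). *snp27*, upstream of *adh1*, gave 0.42, 0.59 and −1.23 (mean −0.07). *mae1*, whose own IGR feature had a mean of −0.70 with samples on both sides of the array median, adjoins a gene with a high IGR feature. That of *rpn502*, divergent from *mae1*, gave 2.37, 2.03 and 2.26 (mean 2.22) and 2.27 after normexp (adjusted p = 1.50e-06). The feature of *rpn502* was above that of *mae1* in every sample, and which part of the 1373 bases between the genes each feature holds is not stated in the files.

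**Figure D3:**
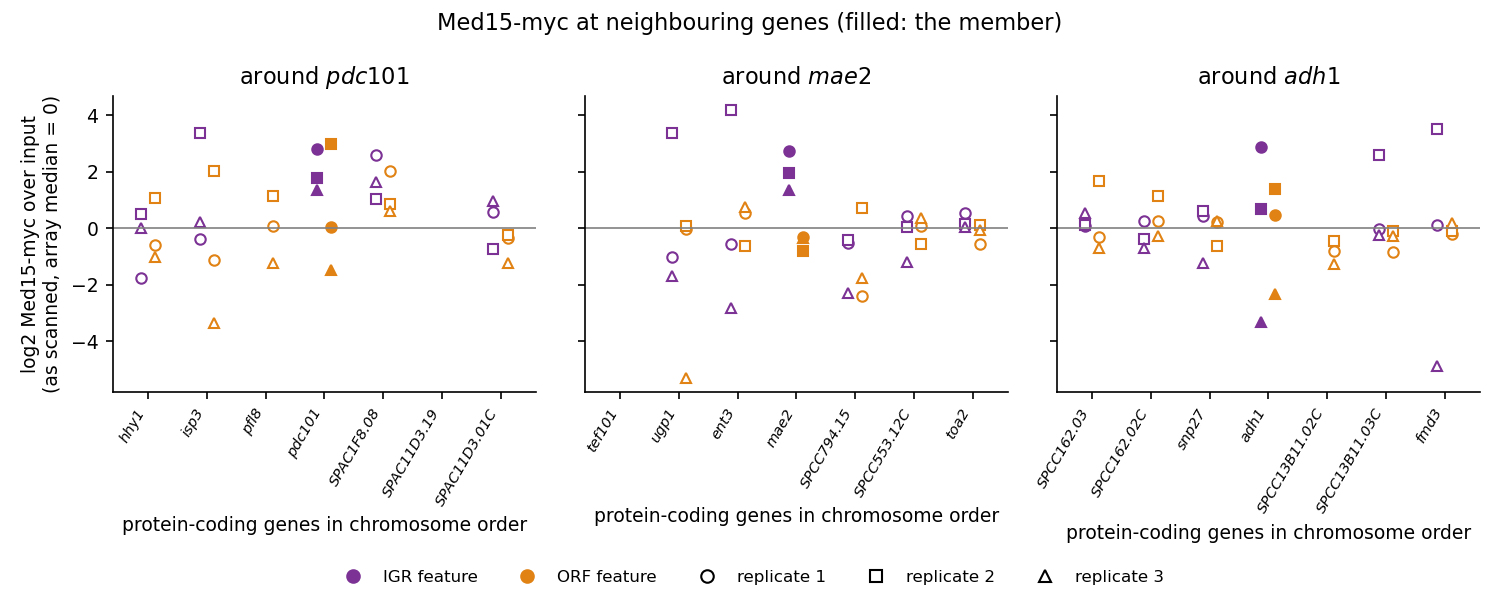
Log2 Med15-myc over input as scanned, array median at 0, for the protein-coding genes in chromosome order around *pdc101*, *mae2* and *adh1*; purple symbols are IGR and orange symbols ORF features, symbol shapes are replicates, filled symbols are the gene named above the panel, and a name without symbols has no feature matched here. SPAC1F8.08 beside *pdc101* lies above 0 in all 6 measurements, while *ent3* beside *mae2* spans −2.82 to 4.18 in its IGR feature.

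The H3 comparison with wildtype uses the deposited log2 ChIP channel, which the authors did not divide by input. A difference is therefore one of ChIP signal, and H3 occupancy and the yield of a precipitation cannot be told apart. No scan date is known here for the wildtype samples, so strain and date cannot be told apart in these comparisons. Both wildtype samples of each array type carry Cy3 on the ChIP DNA by their labels, and only the deletion strains inform the dye term. The series' design text, however, states a dye swap for every such experiment, so the dye of the wildtype samples is in doubt. Without the dye term *pdc101* IGR differed from wildtype by −1.40 in place of −2.11 in Δmed15 and by −1.83 in place of −2.31 in Δhrp1, and the ORF calls of *adh1* (−4.6, adjusted p = 0.00255) and *pdc201* (1.49, adjusted p = 0.0141) described below were made too.

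At the IGR features the fitted H3 signal was lower than in wildtype at *pdc101* and *mae2* in both deletions and higher at *pdc102* in Δhrp1, but no feature passed the test. *pdc101* IGR read −0.57 and −0.73 in wildtype, −2.23 and −1.86 in Δmed15, and −3.66, −3.15 and −0.61 in Δhrp1, in log2 units from the array median. Both Δmed15 samples were below both wildtype samples, and 1 Δhrp1 sample lay between the wildtype samples. The fitted difference was −2.11 ± 0.84 in Δmed15 (adjusted p = 0.214) and −2.31 ± 0.74 in Δhrp1 (adjusted p = 0.0657). *mae2* IGR read −0.34 and 0.25 in wildtype, −1.22 and −1.01 in Δmed15, and −3.07, −1.29 and −1.14 in Δhrp1. All 5 deletion samples were below wildtype there, with differences of −1.32 ± 0.78 (adjusted p = 0.382) and −1.96 ± 0.69 (adjusted p = 0.0850). With so few samples, strains can lie apart by chance. The share of all features that separate the strains like this was not counted, here or for the comparisons below.

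*pdc102* IGR read −0.75 and −0.86 in wildtype and −1.36 and −1.39 in Δmed15, but 0.90, 1.34 and 0.02 in Δhrp1. The Δhrp1 samples were all above wildtype, by 1.76 ± 0.56 (adjusted p = 0.0648). *mae1* IGR read 0.55 and −0.90 in wildtype, 2.46 and 2.57 in Δmed15, and 1.46, −1.06 and 0.92 in Δhrp1. The Δmed15 samples lay above wildtype by 2.51 ± 0.94 (adjusted p = 0.193), and the Δhrp1 samples overlapped wildtype. *pdc201* IGR read 3.84 and 4.21 in wildtype, 3.10 and 3.11 in Δmed15, and 3.73, 3.44 and 3.94 in Δhrp1. Both Δmed15 samples of *pdc201*, and both of *pdc102*, lay below both wildtype samples. *adh1* IGR read 0.26 and 0.76, then −0.27 and 0.53, then 0.89, −1.72 and 0.55, so that all 3 strains overlapped. For the IGR features 0 of 6 were called in Δmed15, beside 0.205% of 4880 features, and 0 of 6 in Δhrp1, beside 12.5%. At an unadjusted p under 0.05 limma placed 924 and 1547 features, among them *pdc101* and *mae1* in Δmed15 and *pdc101*, *pdc102* and *mae2* in Δhrp1.

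**Figure D4:**
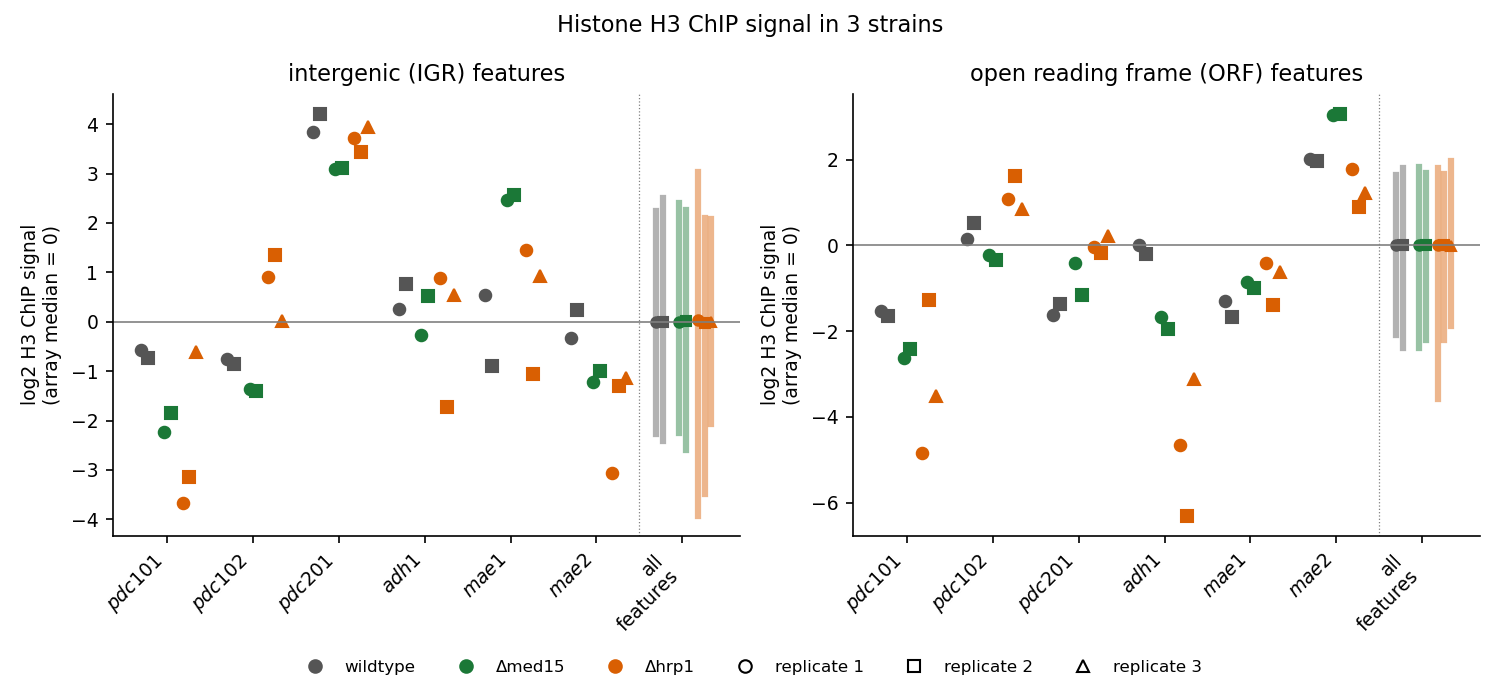
Centred log2 H3 ChIP signal of the IGR (left) and ORF (right) features in wildtype, Δmed15 and Δhrp1, 1 symbol per replicate; the bars at the right of each panel span the 5th to 95th percentile of all features of each sample. *adh1* ORF falls from −0.21 and 0.01 in wildtype to between −6.31 and −3.12 in Δhrp1, with Δmed15 at −1.95 and −1.68 between them.

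In the open reading frames H3 signal was called lower at *adh1* and higher at *pdc201* in Δhrp1, beside 27.7% of all 4780 features called. Both calls were lost without either wildtype sample, as described below. *adh1* ORF read 0.01 and −0.21 in wildtype, −1.68 and −1.95 in Δmed15, and −4.66, −6.31 and −3.12 in Δhrp1. The 3 strains did not overlap. The fitted difference was −5.09 ± 0.65 in Δhrp1 (limma, adjusted p = 0.00549), lower than at all but 0.293% of ORF features, and −2.45 ± 0.74 in Δmed15 (adjusted p = 0.0919, not called). In Δhrp1 the ChIP signal of *adh1* ORF was 147 and 120.5 scanner units over a background of 0 in replicates 1 and 2, and 2427 over 1879 in replicate 3. The input of *adh1* ORF was 0.57, 0.49 and 0.18 times the array median in Δhrp1 and 0.51 and 0.77 times in Δmed15. The centred ChIP values of *adh1* ORF reach into the range of the deleted *hrp1* reading frame given above, so the size of the fall is not exact.

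*pdc201* ORF read −1.63 and −1.36 in wildtype, −0.41 and −1.15 in Δmed15, and −0.03, −0.18 and 0.21 in Δhrp1. Δhrp1 was above wildtype in every sample, by 1.33 ± 0.36 (adjusted p = 0.0309). These 2 of 6 ORF features were called in Δhrp1, beside 27.7% of 4780 features called in all, 13.7% higher and 14% lower, so the share of the genes is near that of the array. None of 6 was called in Δmed15, beside 5.49% of 4774. Both Δhrp1 calls were lost without either wildtype sample, while the differences stayed near their size. Without wildtype replicate 1 *adh1* was at −4.97 (adjusted p = 0.0568) and *pdc201* at 1.19 (0.206), and without wildtype replicate 2 they were at −5.20 (0.0943) and 1.46 (0.160), where the calls over all ORF features went from 1324 to 3. *pdc201* was also lost without Δhrp1 replicate 2 (0.0780). Conversely, *pdc101* passed in Δhrp1 without Δhrp1 replicate 2 (−2.88, adjusted p = 0.0246), the only Δhrp1 sample in which it lay above wildtype. *adh1* passed in Δmed15 without Δhrp1 replicate 1 (−2.58, adjusted p = 0.0292), where the calls over all ORF features went from 262 to 820.

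The other ORF features were not called. *pdc101* ORF read −1.53 and −1.64 in wildtype, −2.63 and −2.42 in Δmed15, and −4.85, −1.26 and −3.52 in Δhrp1. *pdc102* ORF read 0.15 and 0.53, then −0.22 and −0.35, then 1.08, 1.61 and 0.84, with Δhrp1 above and Δmed15 below wildtype. *mae2* ORF read 2.02 and 1.96, then 3.04 and 3.07, then 1.78, 0.90 and 1.22, with the Δmed15 samples highest. Its 2 ChIP spots were saturated in Δmed15 replicate 1 and its 2 input spots in replicate 2. *mae1* ORF read −1.30 and −1.67, then −0.85 and −0.98, then −0.42, −1.38 and −0.62.

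Where input was on the same array, in the deletion strains, H3 over input was low at the IGR features of *pdc101*, *mae2* and *adh1*, the 3 that had high Med15-myc ratios after normexp in the tagged strain. *pdc101* IGR read −2.45 and −3.03 in Δmed15 and −3.81, −3.95 and −2.20 in Δhrp1, below all but 7.32% or fewer of the 4961 features in each sample. *mae2* IGR read −1.77 and −1.32, then −3.30, −2.12 and −1.96, below all but 8.95% or fewer. *adh1* IGR read −3.99 and −2.55, then −0.38, −3.66 and −3.19. Its value of −3.99 was the lowest of all IGR features in Δmed15 replicate 1, while that of −0.38 in Δhrp1 replicate 1 had 43.1% of features below it. The input signal of all 3 features was above the array median in all 5 samples, from 2.50 to 11.9 times it at *adh1*, 1.56 to 3.77 times at *pdc101* and 1.17 to 2.66 times at *mae2*, and the part of that input signal in the ratios was not tested. The input was also above the median in all 5 samples at *pdc201* (3.05 to 19.5 times) and *mae1* (1.28 to 5.05 times). At *pdc102* it was below the median (0.12 to 0.95 times). *pdc201* (0.20 and 0.45, then 2.12, 0.85 and −1.15), *pdc102* (0.23 and −0.59, then 0.96, 1.67 and 2.93) and *mae1* (−0.25 and 0.26, then 0.87, −1.30 and −1.29) were not low in every sample.

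Between the deletions no IGR feature of the 6 genes was called, beside 0% of 4961 features, of which 14 had an unadjusted p under 0.05. The largest difference, Δhrp1 less Δmed15, was that of *pdc102*, at 2.24 ± 0.72 (adjusted p = 0.999), with all 3 Δhrp1 samples above both Δmed15 samples. Its 95% interval was 0.50 to 3.98, and that of *pdc101*, whose difference was −0.38 ± 0.71, was −2.10 to 1.35. The scanner tables of the 2 deletions carry different dates, so strain and date cannot be told apart; with date as a random block and no dye term the difference of *pdc102* was 1.99, not called. In the ORF features none was called either, beside 0% of 4887, of which 63 had an unadjusted p under 0.05. *adh1* ORF, which fell against wildtype, read −0.58 and −1.54 in Δmed15 and −3.78, −5.24 and 0.93 in Δhrp1, so that replicate 3 went the other way. In that sample its ChIP signal was 1.29 times background and its input 0.18 times the array median. After normexp the value of that sample was −0.39. *pdc201* ORF was above the median in all 5 samples, at 0.84 and 0.27, then 0.58, 0.69 and 1.30. *pdc101* ORF ranged from −4.05 to 2.76 within Δhrp1. The 2.76 is that of replicate 3, where its ChIP signal was 1.21 times background and its input 0.051 times the array median. After normexp it was 0.60.

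**Figure D5:**
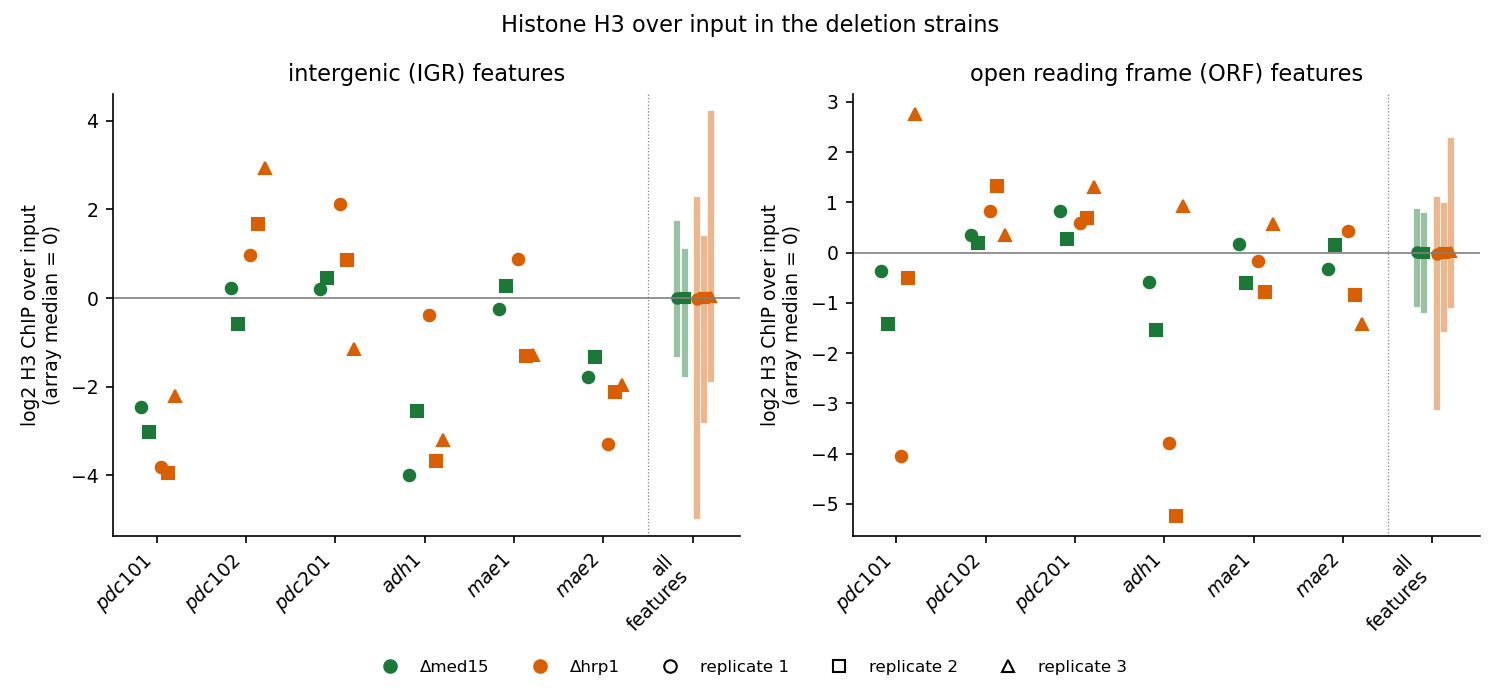
Log2 ratio of H3 ChIP over input as scanned, array median at 0, in Δmed15 and Δhrp1 for the IGR (left) and ORF (right) features, 1 symbol per replicate, with the 5th to 95th percentile of all features of each sample as bars. *pdc101* and *mae2* IGR lie below −1.3 in all 5 samples, and *pdc102* IGR is higher in each Δhrp1 sample than in either Δmed15 sample.

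Other genes of the same pathways were followed in 4 lists: ethanol and acetate (7 of 8 genes on the arrays), pyruvate (8 of 9 genes on IGR arrays and 9 on ORF arrays), glycerol (5 of 7 genes on IGR arrays and 6 on ORF arrays), and malate and the citrate cycle (14 of 15). For Med15-myc as scanned none of their IGR features was called, and the list medians were −0.38, −0.10, 0.25 and −0.14, beside 0.48 for the 6 genes and 0.04 for all features. The largest values were both of *gpd1*, the glycerol-3-phosphate dehydrogenase gene, at 2.31 and 1.46, and −0.97 for *lsc1*, of succinyl-CoA ligase. After normexp the called features were the 2 of *gpd1*, at 2.71 and 1.81, beside the 3 of 6 above, and the medians were −0.09, −0.44, 0.16 and −0.28, beside 1.25 for the 6 genes and 0.03 for all features. Both the genes and the lists were chosen with earlier results of these data known, so the medians carry no test. After loess 1 of 7, 2 of 8, 2 of 6 and 3 of 14 IGR features were called, beside 10.3% of all features, 3.45% higher and 6.85% lower: *gpd1* (1.95 and 1.12), *pyk1* of pyruvate kinase (0.57) and *aco1* of aconitase (0.53) were called higher, and *sdh1* (−0.89), *atd1* (−0.75), *mpc2* (−0.62) and *kgd2* (−0.59) lower. *gpd1* makes glycerol, the other reduced product of fermentation. In the ORF features of the lists none was called as scanned or after normexp, and *lsc2* (0.49) was after loess, beside 9.35% of all features.

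Among these pathway genes H3 calls were made in the comparison of Δhrp1 with wildtype: in the order of the lists above, 0 of 7, 1 of 8, 2 of 5 and 3 of 14 IGR features, beside 12.5% of all IGR features, and 2 of 7, 3 of 9, 2 of 6 and 2 of 14 ORF features, beside 27.7% of all ORF features. Over the whole arrays these calls went from 609 to 2 on IGR and from 1324 to 3 on ORF arrays without wildtype replicate 2. The IGR medians were −1.04, −0.24, −1.68 and 0.62, beside −0.53 for the 6 genes and −0.08 for all features. The ORF medians were 0.31, −0.93, 0.30 and −0.09, beside −0.03 for the 6 genes and 0.04 for all features. In Δhrp1 the IGR features of *fum1* (−4.82), *gpd1* (−4.62), *pyk1* (−3.89), *dak1* (−3.74) and *kgd1* (−2.81) fell and that of *mdh1* (2.93) rose. The missing values were at the floor and all in Δhrp1: *fum1* was measured there in 1 sample (−4.22), so its call rests on a lone sample assumed to vary like the others, and *gpd1* in 2 samples, which read −6.04 and −1.09. In ORF features *gpd1* (−2.48, at the feature labelled gpd1-x2), *gut2* (−2.47), *mpc2* (−2.26), *mdh1* (−2.06), *kgd1* (−2.01), *lat1* (−1.77), *pdb1* (−1.52) and *atd2* (−1.32) fell and *adh8* (2.36) rose. The other *gpd1* ORF feature was not called and went the other way. It read 1.04, 0.55 and 0.80 in Δhrp1 against −0.40 and −0.24 in wildtype. *lat1* and *pdb1* are subunit genes of pyruvate dehydrogenase, the enzyme that competes with pyruvate decarboxylase for pyruvate. In Δmed15 none was called, with IGR medians of −1.26, 0.38, −0.52 and 0.12 beside −0.75 for the 6 genes and −0.06 for all features, and the largest values were −3.81 for *dak1*, −3.46 for *acs1* and 2.85 for *mdh1* in IGR features and −1.32 for *atd2*, −1.27 for *kgd2* and 1.30 for *adh8* in ORF features. Both comparisons share the wildtype samples. Between the deletions none was called in H3 over input, with the largest values at *gpd1* (−2.93), *sdh3* (2.56) and *dak1* (−2.37) in IGR features and at *gpd1* (−1.16, gpd1-x2), *kgd1* (1.09) and *mpc2* (−0.94) in ORF features. The other *gpd1* ORF feature read 1.19, 0.80 and 0.06 in Δhrp1 and 0.38 and 0.24 in Δmed15.

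Over the 10 IGR arrays (3 Med15-myc ratios and 7 H3 signals) *pdc101* and *mae2* had a Pearson correlation of 0.96. Of 4754 features measured on all 10, the most like *pdc101* were longIGRSPAC1F8.08 (0.96), *mae2* (0.96) and *tbp1* (0.94), and the most like *mae2* were *tbp1* (0.96), *pdc101* (0.96) and longIGRSPAC1F8.08 (0.93). *adh1* was most like *tif51* (0.89), SPBC839.14c, now *efm4* (0.89), and SPCC330.07c (0.88), and correlated with *pdc101* at 0.20 and with *mae2* at 0.14. *pdc201* had negative coefficients with *pdc101* (−0.78) and *mae2* (−0.80). Its H3 signals, not divided by input, ran from 3.10 to 4.21 and its Med15-myc ratios from −1.29 to 0.57. This difference in level between the assays enters its coefficients, as such differences do at the other features. The Δmed15 H3 samples of *pdc201* were below wildtype, as they were at *pdc101* and *mae2*. The 10 points share arrays, dyes and 2 assays on different scales, so these coefficients describe the profiles and carry no test.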

How the data were processed

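The 20 spotted-array samples were used; the 6 expression arrays were not analysed here. Each spot's intensity and local background in both dyes come from the deposited scanner tables, uncorrected per the file headers. Labels gave which dye the ChIP DNA carried. The deposited value table holds log2 values that, set against the scanner tables, are the authors' ChIP channel less background with a floor of −6.64 (correlation 0.991 or more), not divided by input. Wildtype H3 was used from that table only, so its make-up is inferred. The labels name Eurogentec arrays; software, aligner and build are not given in the sources used here.

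Control spots were left out, arrays centred on their median spot and spots of a feature averaged. For Med15-myc, limma 3.58.1 (R 4.3.3) tested the mean log2 ratio of ChIP over input, as scanned, of 3 samples against 0. For H3, the deposited log2 values of 7 samples per array type entered a fit with strain and ChIP dye, values at the floor missing. Between the deletions, log2 ratios of 5 samples were fitted with strain and dye. All tests are two-sided, adjusted by Benjamini-Hochberg over all features, with a threshold of 0.05; errors are standard errors of the fit. A feature was called dim where either channel of any sample was not above 1.5 times its background. normexp used an offset of 50. The number of arrays limits the precision. Alternatives were background correction, loess, the ChIP channel alone, dim and floor filters, scaling, centring, dye, date, replicate block and leaving out each sample.

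The samples are biological replicates per the series' design text. Fits were tested on simulated data with seeded changes and independent noise smaller than the observed spread. The simulation held no dye or date effect and no replicates that ran against each other, so it checks the code alone. The 6 genes, the pathway lists, fixed as given, and the windows were chosen with earlier results of these data known. Named beyond the 6 genes were the deleted genes, the adjacent genes, list genes that were called (or the 3 largest where none was) and the 3 features most like *pdc101*, *mae2* and *adh1* in Pearson correlation. Of these lists, *acs2*, *gut1* and *sdh4* matched no feature, and *pyr1* and *gld1* matched none on IGR arrays. Sequences, motifs and coding identities were computed with Biopython 1.88 from RefSeq ASM294v3; 1 promoter window is not reported here. *pdc* genes are related in sequence and spotted DNA can cross-hybridise.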

Additional observations from a re-analysis of the deposited data

How the results depend on the processing

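Of 294 values of the 6 genes under settings other than leaving out a sample, 257 kept their direction and side of the threshold, 18 changed direction and 19 passed the threshold newly; of 336 with 1 sample left out the counts were 290, 28 and 7, and 11 lost a call. For Med15-myc on IGR arrays 0 genes were called as scanned, against 3 after normexp, 3 after loess, 3 with the ChIP channel alone and 2 without dim features, and over all features the count ran from 0 to 702; the cause was not tested. *mae1* turned to 0.10 after normexp and 0.28 after loess, and with the ChIP channel alone *pdc102* turned to −0.21 and *pdc201* to 2.28. On ORF arrays 2 were called after loess and 3 with the ChIP channel alone (0 to 1634 over all features), cause not tested; *adh1* turned to 0.30 after normexp and 0.39 after loess, and with the ChIP channel alone *mae2* turned to 1.11 and *pdc101* to −1.53. For H3 against wildtype on IGR arrays 1 gene was called in Δhrp1 with Cy3 samples alone (*pdc101*, limma adjusted p = 0.0324) and 1 after equalising the spread of the arrays (*pdc102*, 0.0428), cause not tested. Over all IGR features the calls in Δhrp1 were 609 in the main fit and ran from 2 to 1127 over the settings. *adh1* in Δmed15 turned to 0.018 with Cy3 samples alone. For H3 over input between the deletions *pdc201* IGR turned to −0.071 after normexp and −0.092 after loess, *pdc101* IGR to 0.69 after loess, *adh1* IGR to −0.19 with the ChIP channel alone, *adh1* ORF to 0.18 after loess and *pdc101* ORF to −0.75 with the ChIP channel alone.

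The replicate numbers were not taken to pair the samples, since no label ties them and the groups share 2 numbers; deviations of same-numbered samples correlated at 0.12 to 0.19 on IGR arrays and 0.023 to 0.33 on ORF arrays. With a replicate block 1 gene was called in Δmed15 on IGR arrays (*mae1*, 3.74) and 3 in Δhrp1 (*pdc101*, −2.76, *mae2*, −2.14, and *pdc102*, 1.93), cause not tested, and *adh1* in Δmed15 turned to 0.55; over all IGR features the count in Δhrp1 went from 609 to 1127 and in Δmed15 from 10 to 205. For H3 over input the planned block with dye left no residual degrees of freedom; a replicate block without dye, added after seeing the data, turned *mae1* ORF to −0.25 and *pdc101* ORF to −1.38. Date as a random block could not be estimated for Med15-myc and was not run; for H3 over input it was run without dye, also added later.

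With each sample left out in turn the number of genes called ran from 0 to 1 in Δhrp1 IGR, 0 to 1 in Δmed15 ORF, 0 to 2 in Δhrp1 ORF and 0 to 1 for Med15-myc ORF after loess, cause not tested. Over all features these ran as low as 2 of 609 and 3 of 1324 in Δhrp1 without wildtype replicate 2, on IGR and ORF arrays, and in Δmed15 as high as 582 of IGR (10 in the full fit) and 820 of ORF features (262), both without Δhrp1 replicate 1, and as low as 1 of ORF features without wildtype replicate 1; Cy3 samples alone gave 0 in Δmed15 IGR. For Med15-myc after normexp they ran from 26 to 192 (122 with all samples) on IGR and 8 to 233 (22) on ORF arrays, and after loess from 33 to 511 (511) and 78 to 485 (457). H3 over input gave at most 6 IGR calls (after loess) and 8 ORF calls (block without dye) under any setting. Values that changed direction spanned, for Med15-myc IGR, −1.32 to 1.77 (*adh1*), −1.68 to 0.39 (*mae1*), −0.24 to 1.71 (*pdc102*) and −0.60 to 0.33 (*pdc201*), and −0.050 to 0.24 for *mae1* after normexp. For Med15-myc ORF they spanned −0.92 to 0.93 (*adh1*), −0.46 to 0.076 (*mae1*), −0.034 to 0.27 (*pdc102*) and −0.71 to 1.51 (*pdc101*), −0.037 to 0.91 for *adh1* after normexp and −0.050 to 0.27 for *pdc102* after loess. For H3 IGR they spanned −1.75 to 0.018 (*adh1*) and −0.59 to 0.54 (*pdc102*) in Δmed15 and −1.46 to 0.50 (*adh1*) and −0.36 to 1.53 (*mae1*) in Δhrp1. For H3 over input they spanned −0.16 to 1.49 (*adh1*), −0.85 to 0.26 (*pdc101*) and −1.35 to 1.03 (*pdc201*) on IGR and −2.97 to 1.52 (*adh1*), −0.012 to 0.89 (*pdc102*) and −0.85 to 3.13 (*pdc101*) on ORF arrays. The settings after normexp and loess with a sample left out were chosen after seeing the data.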
